A study of Mus musculus with 14 samples.

Results

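Of 41556 regions with H3K4me3 on chromosomes 1 to 19, 21864 held a peak in all 6 H3K4me3 lists, and 20956 of these were covered over a mean of less than 4000 bp. At 3501 of the 20956 (16.7%), each of the 3 FLAG lists from cultures with tagged K27M histone had a peak that overlapped the region, and none of the 3 FLAG lists from cultures with the tagged wild-type histone did. These 3501 are called K27M-Tag-only regions here. Peak presence in both assays and the covered length chose them, so those values are given as a description, without a test. In them FLAG was weaker and covered less of the region than at regions with FLAG in both genotypes. Sorting regions by WT-Tag FLAG peaks favours this order, so nothing is read from it. H3K4me3 itself was taller and wider than at regions with no FLAG peak, although longer regions had more room to meet one. Within each band of breadth up to 3000 bp, however, H3K4me3 ranked lower in height than at regions with no FLAG peak. The change of H3K4me3 breadth between genotypes was close to that of all shared regions.

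The cultures were neurospheres, free-floating spheres of neural stem cells, grown from mouse embryonic hindbrain at e15.5. The 3 K27M-Tag cultures had the genotype Nestin-cre; H3f3aLSL-K27M-Tag/+ and the 3 WT-Tag cultures Nestin-cre; H3f3aLSL-WT-Tag/+. Both groups therefore carried Nestin-cre, a recombinase expressed in neural progenitors, and a single switched-on tagged allele beside an untagged H3f3a allele, so part of the H3.3 in both carried no tag. Chromatin of each culture was precipitated with an antibody to FLAG, the tag, and with an antibody to H3K4me3. The cultures were female except WT-Tag replicate 3, which was male, and no culture without a tag was used here. The labelled cell type was not checked against its marker genes, because no gene annotation of build mm9, the build of the lists, was used here. For the same reason regions are given by mm9 position, without gene names or sequence.

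H3f3a encodes histone H3.3, a form of H3 that is placed into chromatin outside DNA replication, much of it at active promoters, enhancers and gene bodies. K27M replaces the lysine at position 27 with methionine. It is a driver mutation of childhood midline gliomas of the hindbrain and thalamus, and it inhibits PRC2, the complex that methylates this lysine. H3K4me3 is trimethylation of lysine 4 of H3, which marks the nucleosomes on both sides of transcription start sites, with the start itself often poor in nucleosomes. A FLAG peak marks where the tagged H3.3, K27M or wild type, stands above the local background.

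The values came from the authors' peak lists, 1 for each library. FLAG peaks numbered 78070, 57589 and 88285 for K27M-Tag, while WT-Tag had 32763, 47293 and 46680, in the order of replicates 1, 2 and 3, which is the order used throughout. The summit pileup (the fragments stacked at a peak's highest point) and the local background were recovered from each peak's fold enrichment and p-value. The lowest background of a list, its background coverage, was 2.77 to 3.60 fragments over the 12 lists. On a flat background, a FLAG peak needed 11 or 12 fragments, or 3.33 to 3.60 times the background coverage, to enter a K27M-Tag list, and 12 fragments, or 3.48 to 3.88 times, to enter a WT-Tag list. Nothing in the labels says whether the replicates came from separate embryos, so p-values measure the spread between these libraries only.

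K27M-Tag-only regions were the most frequent pattern among regions with FLAG in all 3 K27M-Tag lists. Beside the 3501, 1672 regions had FLAG in all 3 K27M-Tag lists and in 1 WT-Tag list, 1565 in 2 WT-Tag lists, and 2804 (13.4% of the 20956) in all 3. No FLAG peak in any list was found at 6652 regions (31.7%). The mirror pattern, FLAG in all 3 WT-Tag lists and in no K27M-Tag list, was met by 4 regions. The WT-Tag FLAG lists were shorter, as given above. With the same number of top-scoring peaks kept from every FLAG list, 1671 regions met the rule, of which 1306 were among the 3501.

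**Figure D1:**
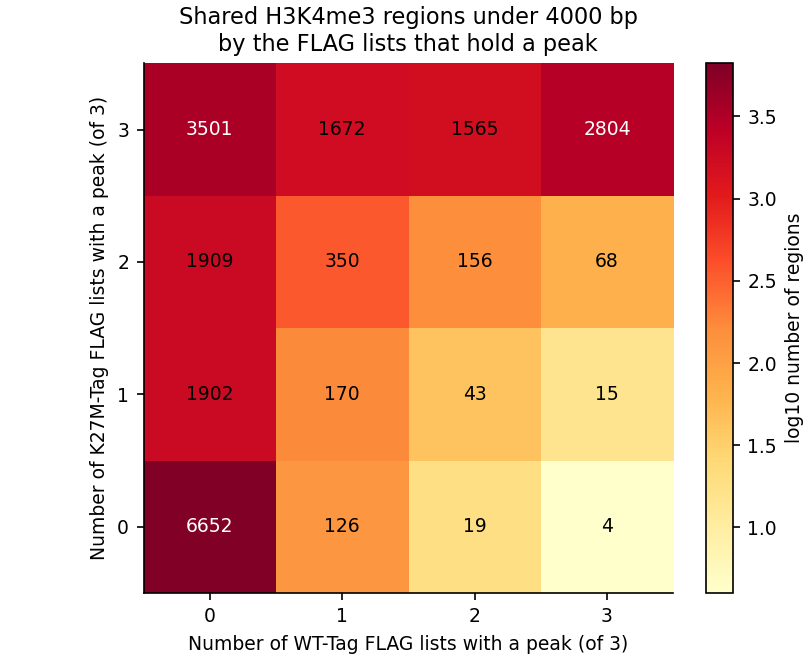
Number of shared H3K4me3 regions under 4000 bp for each combination of FLAG lists, with the number of K27M-Tag lists that have a FLAG peak in rows and the number of WT-Tag lists in columns. The combination of 3 K27M-Tag lists and 0 WT-Tag lists holds 3501 regions, and the opposite corner holds 4.

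The border of the rule was not sharp. In the 1672 regions with a peak in a single WT-Tag list, that peak stood at a median score percentile of 39.3 within its list (25th to 75th percentile 18.7 to 59.8). The weakest was in WT-Tag replicate 1 on chromosome 3 from 117277459 to 117279832, at percentile 0.0717 and a fold enrichment of 2.78. The strongest was in WT-Tag replicate 2 on chromosome 14 from 55259252 to 55260910, at percentile 99.5 and a fold of 8.33, but only 32 bp of it lay inside the region. The next strongest, on chromosome 6 from 85909827 to 85912800, stood at percentile 98.2 with a fold of 7.35 and covered 532 bp of the region. Thus regions left out by the rule reached from WT-Tag peaks at the foot of their list to peaks near its top.

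On the side of breadth, the regions nearest to the limit of 4000 bp differed by a few bp in mean covered length. Just inside lay chromosome 1 from 183769512 to 183773831 with 3990 bp and chromosome 7 from 80519499 to 80523728 with 3987 bp. Just outside lay chromosome 8 from 48758393 to 48762655 with 4004.5 bp and chromosome 1 from 196445086 to 196449447 with 4007 bp. Of the 908 shared regions at or above 4000 bp, 178 (19.6%) had FLAG in K27M-Tag only.

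K27M-Tag-only regions were wide for shared regions under the limit. Their mean covered length had a median of 1876 bp (25th to 75th percentile 1118 to 2543 bp), against 1301 bp where all 6 lists had FLAG and 959 bp where none had. The share of regions that were K27M-Tag-only rose with breadth, from 5.78% below 500 bp to 30.0% between 3000 and 4000 bp. Over the same bands the share with no FLAG peak fell from 55.6% to 4.51%. The share with FLAG in all 6 lists was 13.1% in the narrowest band, 10.6% between 1500 and 2000 bp, and 21.0% in the widest. An overlap of 1 bp was enough, so longer regions had more room to meet a FLAG peak of either genotype. The part of this in the widths and shares was not tested.

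Their H3K4me3 was also tall for shared regions in every list. The median summit pileup was 63.7, 69.2 and 55.7 times the background coverage in K27M-Tag, while WT-Tag had 39.5, 56.9 and 51.6 times. The ranges overlapped, and WT-Tag replicate 1 was lowest. Ranks within a list remove such differences between lists. Among the 21864 shared regions of each list, the summit pileup of K27M-Tag-only regions had a median rank percentile of 63.0, 62.8 and 62.6 in K27M-Tag and of 62.5, 62.9 and 62.6 in WT-Tag. Regions with no FLAG peak had medians between 37.2 and 38.1 over the 6 lists, and regions with FLAG in all 6 lists between 27.4 and 30.1. All 6 lists thus gave the same order of the 3 classes.

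Much of that height went with breadth. Within each band of breadth up to 3000 bp, K27M-Tag-only regions ranked below regions with no FLAG peak in every one of the 6 lists. Between 2000 and 2500 bp, for example, the mean of the list medians was 74.1 in K27M-Tag and 74.5 in WT-Tag for K27M-Tag-only regions, against 81.5 in both genotypes for regions without FLAG. Regions with FLAG in all 6 lists stood lower still in this band, at 62.2 and 63.1. In the widest band, with only 66 regions that lacked FLAG, K27M-Tag-only regions ranked lower in 5 of 6 lists; in K27M-Tag replicate 3 they had a median rank of 81.4 against 80.6. Split by height alone, the share of K27M-Tag-only regions rose from 9.45% in the lowest 25% by H3K4me3 pileup to 23.9% in the highest 25%, while the share with FLAG in all 6 fell from 24.4% to 8.36%.

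**Figure D2:**
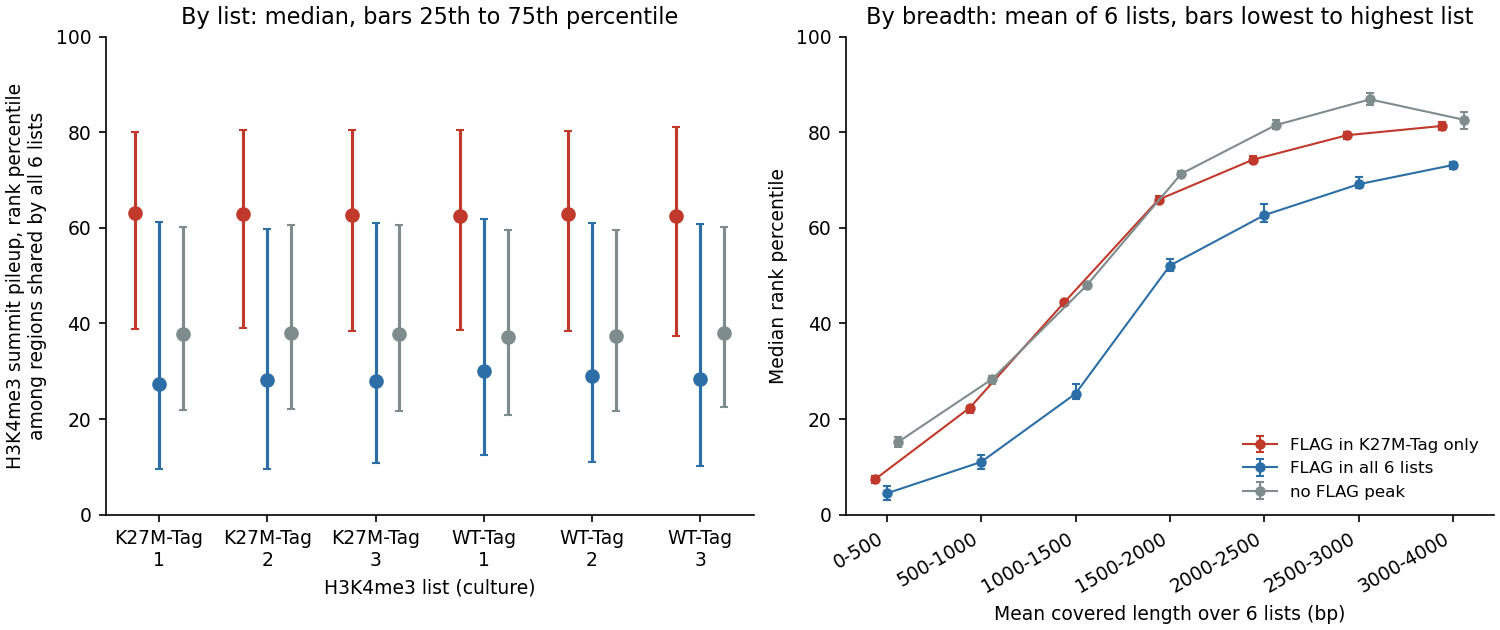
Left, rank percentile of the H3K4me3 summit pileup among regions shared by all 6 lists, for each list (points are medians, bars the 25th to 75th percentile). Right, the mean over the 6 lists of the median rank by band of mean covered length in bp (bars from the lowest to the highest list). K27M-Tag-only regions stand highest in each list, near 63, but below regions without FLAG when breadth is alike.

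Within K27M-Tag-only regions, FLAG was of middle strength for its lists. The strongest FLAG peak of a region had a median score percentile of 66.0, 58.2 and 69.6 within the 3 K27M-Tag lists, and a median fold enrichment of 5.05, 4.61 and 5.19. Where FLAG was in all 6 lists, the K27M-Tag percentiles were 93.4, 90.7 and 93.9. The median summit pileup was 6.96, 5.99 and 6.94 times the background coverage at K27M-Tag-only regions and 10.8, 9.29 and 10.8 times where FLAG was in all 6. Few K27M-Tag-only regions reached 10 times the background, namely 6.54%, 1.83% and 5.31%.

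FLAG usually covered less than the whole of a K27M-Tag-only region. The median covered share was 34.8%, 25.5% and 38.3%, in bp 653, 488 and 720. At regions with FLAG in all 6 lists, the K27M-Tag lists covered 78.7%, 70.4% and 82.4%, and the WT-Tag lists 26.0%, 37.3% and 35.5%. These regions also needed a peak in all 3 WT-Tag lists, which favours stronger and wider FLAG. Nothing is therefore read from their higher K27M-Tag FLAG strength or cover. In K27M-Tag replicate 2, the shortest of the 3 K27M-Tag FLAG lists, both the strength and the cover were lowest.

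More than 1 FLAG peak was found in 47.4%, 33.7% and 50.8% of K27M-Tag-only regions. Of these, 64.4%, 62.3% and 69.4% had FLAG summits on both sides of the H3K4me3 summit of the same culture. The FLAG summit of the strongest peak lay at a median of 513, 527 and 498 bp from the H3K4me3 summit. It was within 200 bp in 27.6%, 26.2% and 28.3% of regions, and beyond 1000 bp in 19.7%, 18.8% and 19.4%. The position was therefore spread over both flanks around a narrow central maximum. Regions with FLAG in all 6 lists had a like median distance of 514, 488.5 and 477 bp.

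**Figure D3:**
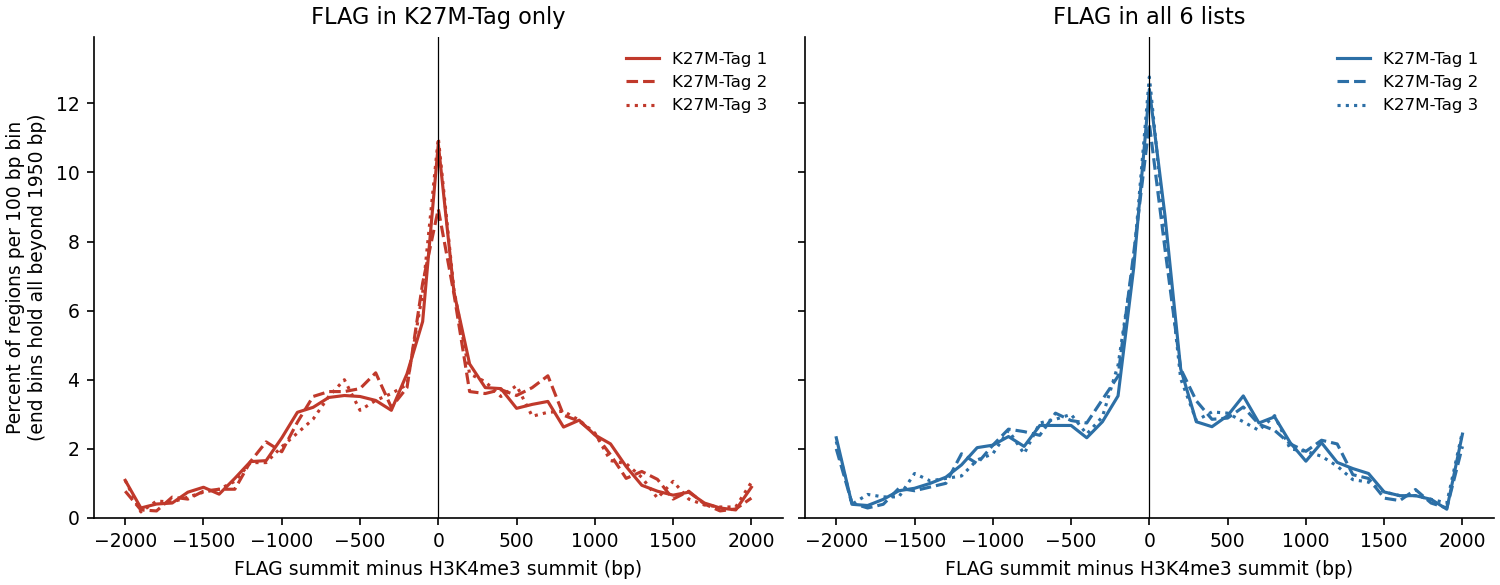
Distance in bp from the H3K4me3 summit to the summit of the strongest FLAG peak, as the percent of regions in each 100 bp bin, for the 3 K27M-Tag cultures (end bins hold all larger distances). In K27M-Tag-only regions (left) the central bin holds 10.8%, 8.94% and 11.0% of regions and broad shoulders reach about 1000 bp on either side; regions with FLAG in all 6 lists are on the right.

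The FLAG summit lay off centre more often than the H3K4me3 summit. The regions were merged H3K4me3 peaks, so their construction favoured a central H3K4me3 summit, and nothing is read from this contrast. A summit placed evenly along a region would lie closer to an edge in 50% of cases. The FLAG summit lay inside the region in 91.0%, 91.5% and 90.9% of K27M-Tag-only regions. In 42.9%, 44.0% and 42.7% of those, it was closer to an edge of the region than to its midpoint. For the H3K4me3 summit this held in 10.4%, 11.2% and 11.4% of all K27M-Tag-only regions. Regions with FLAG in all 6 lists had like FLAG shares of 44.9%, 45.9% and 44.7% in the K27M-Tag lists. The distance between both summits grew with the breadth of the region. In K27M-Tag replicate 1 its median was 209 bp in the 729 regions below 1000 bp, 521 bp in the 1201 regions from 1000 to 2000 bp, 724 bp in the 1132 from 2000 to 3000 bp, and 883 bp in the 439 above. The share with more than 1 FLAG peak rose over the same bands from 22.1% to 75.9%, whereas the FLAG pileup changed little, from 6.65 to 7.28 times the background. Replicates 2 and 3 gave the same order of distances, from 215 to 884 bp and from 203 to 903 bp. A longer region had more room for distant summits and for several FLAG peaks, so nothing is read from either rise.

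FLAG strength varied among K27M-Tag-only regions in a way that the cultures partly shared. Spearman's rho of the FLAG pileup over the 3501 regions was 0.501, 0.551 and 0.508 between the 3 pairs of K27M-Tag lists. With H3K4me3 of the same culture, FLAG pileup had a rho of -0.00297, -0.0582 and -0.0406 with H3K4me3 pileup, and FLAG covered length a rho of 0.400, 0.271 and 0.433 with H3K4me3 covered length. These are descriptions over regions of the same libraries, which share depth and control. Within K27M-Tag-only regions a taller H3K4me3 peak thus did not go with a taller FLAG peak. These regions were chosen through their FLAG peaks, which limits the range of FLAG pileup and can weaken a rho. At regions with FLAG in all 6 lists, the rho of both pileups was -0.205, -0.213 and -0.252 in the K27M-Tag cultures. FLAG-covered bp were counted only inside the region, so their upper limit grew with its length. Nothing is therefore read from the positive rho of the covered lengths. The median share of a region that FLAG covered was lower from 3000 to 4000 bp than below 1000 bp in all 3 K27M-Tag lists. In replicate 3 it was 30.4% against 60.9%.

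The 6 regions with the highest FLAG percentiles were chosen by the lowest of their 3 K27M-Tag percentiles. First was chromosome 11 from 32126269 to 32127545, with FLAG at percentiles 99.9, 99.8 and 99.9, folds of 12.3, 9.30 and 11.1, and a pileup of 20.6, 17.4 and 21.9 times the background. Its FLAG summits lay 1378, 1274 and 1269 bp from the H3K4me3 summit, and WT-Tag FLAG peaks began 169, 55 and 173 bp outside the region. It met the rule although WT-Tag FLAG stood next to it in all 3 lists.

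WT-Tag FLAG was near in 4 of the other 5 as well. On chromosome 3 from 95907722 to 95910307, with FLAG percentiles of 98.7, 99.9 and 99.7, it was 445, 234 and 199 bp away. The values on chromosome 12 from 106800744 to 106803767 (percentiles 99.5, 99.0 and 98.3) were 41, 1021 and 1016 bp. At both, the FLAG summits were 1721 to 2721 bp from that of H3K4me3, although FLAG covered 774 to 1543 bp inside the regions. On chromosome 16 from 30187523 to 30188217 (percentiles 98.8, 97.2 and 98.5), FLAG covered all 695 bp in each K27M-Tag list and the WT-Tag distances were 455, 89 and 318 bp. For chromosome 9 from 57350522 to 57352747 (percentiles 99.0, 98.0 and 97.0) they were 318, 86 and 4 bp. The exception was chromosome 2 from 156687246 to 156690709 (percentiles 98.6, 97.1 and 97.6), with WT-Tag FLAG no nearer than 6070, 4033 and 3818 bp. The very highest FLAG values among K27M-Tag-only regions thus mostly stood beside FLAG of both genotypes.

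Across all K27M-Tag-only regions this was less common. The nearest FLAG peak of any WT-Tag list was at a median of 4924 bp, and 1024 regions (29.2%) had one within 1000 bp. In single lists the share within 1000 bp was 12.8%, 19.7% and 18.7%. At regions with no FLAG peak the median distance was 22156 bp and the share 9.32%. Of the 25% of K27M-Tag-only regions with the lowest FLAG percentiles, 24.9% had WT-Tag FLAG within 1000 bp, and of the 25% with the highest, 36.0%.

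A K27M-Tag FLAG peak that reached into the region also overlapped a WT-Tag FLAG peak outside it in 338 of the 3501 regions (9.65%) when any K27M-Tag list counted, and in 101 (2.88%) when all 3 had to. Where the FLAG summit was inside the region in all 3 K27M-Tag lists, as in 2884 regions, 3.71% were of this kind. Where it was outside in all 3, as in 78 regions, 60.3% were. Without any WT-Tag FLAG within 1000 bp, 2477 regions met the rule.

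The peak caller demands more fragments where the local background is high, and this background differed between genotypes at K27M-Tag-only regions. At the H3K4me3 summit it exceeded 1.5 times the background coverage in 9.08%, 11.2% and 11.9% of them in the K27M-Tag H3K4me3 lists, and in 43.7%, 43.7% and 43.9% in the WT-Tag lists. The WT-Tag share was 36.8% to 37.1% at regions with no FLAG peak, 32.2% to 33.6% where all 6 lists had FLAG, and 38.7% to 39.0% over all shared regions under 4000 bp. Raised WT-Tag background was thus common everywhere and somewhat more common at K27M-Tag-only regions. Between WT-Tag lists the background of the same region had a Spearman's rho of 0.785 to 0.808, and between replicate 1 of both genotypes 0.194. Lists of the same genotype may share a control library, so they are not independent in this value.

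With that raised background, the pileup a FLAG peak needed in the WT-Tag lists had a median of 4.53, 4.06 and 4.21 times the background coverage. The K27M-Tag FLAG pileup, averaged over the 3 lists, had a median of 6.60 times. The rule itself required K27M-Tag peaks, which on a flat background had to reach 3.33 to 3.60 times, close to the 3.48 to 3.88 times of the WT-Tag lists. That most K27M-Tag pileups lay above the WT-Tag need is therefore in part fixed by the choice of regions. Nothing is read from it about why WT-Tag had no peak. The K27M-Tag pileup was below the need of WT-Tag replicates 1, 2 and 3 at 282, 162 and 206 regions. It reached the need of all 3 at 3149 of the 3501 regions (89.9%). The share was 2071 of 2080 regions (99.6%) where the mean WT-Tag local background was at or below 1.5 times the background coverage. Above that level it was 1078 of 1421 regions (75.9%). The background was read at the H3K4me3 summit, about 500 bp from the FLAG summit. The part of local background in the missing WT-Tag FLAG peaks was not tested.

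**Figure D4:**
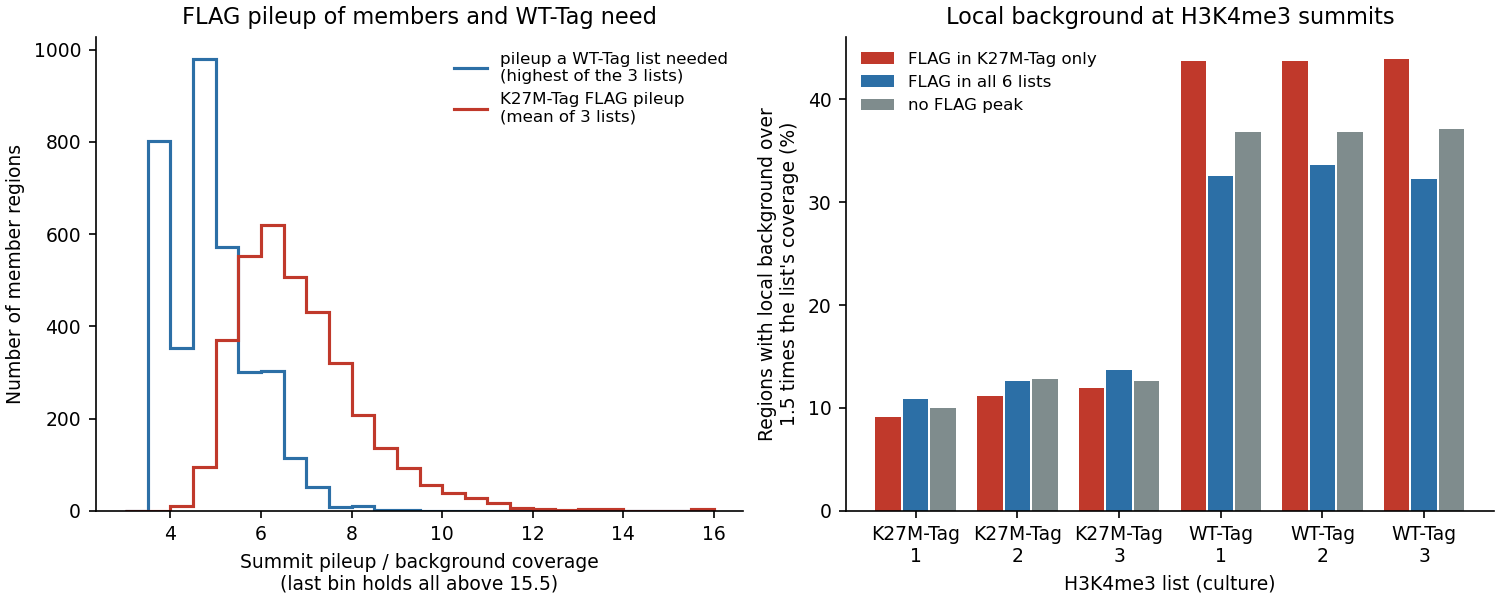
Left, for the 3501 K27M-Tag-only regions, the mean K27M-Tag FLAG summit pileup and the highest pileup that any of the 3 WT-Tag FLAG lists needed, both as multiples of background coverage (medians 6.60 and 4.85). Right, percent of regions whose local background in each H3K4me3 list exceeded 1.5 times the list's background coverage; the WT-Tag lists stand between 32.2% and 43.9% and the K27M-Tag lists lower.

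The difference of H3K4me3 breadth between genotypes was not used to choose the regions and was tested. The covered bp of all 21864 shared regions were fitted on the log2 scale with limma, with Benjamini-Hochberg adjustment over all of them and a threshold of 0.05. Of the K27M-Tag-only regions, 314 (8.97%) were wider in K27M-Tag and 12 (0.343%) narrower, where 7.51% of all shared regions were wider and 0.549% narrower. The median log2 change was 0.12 over K27M-Tag-only regions (25th to 75th percentile 0.04 to 0.25) and 0.14 over all shared regions. In 1399 of them (40.0%) the lowest K27M-Tag value was above the highest WT-Tag value, and in 60 (1.71%) the order was the opposite, against 37.8% and 2.08% of all shared regions. Both shares were near those of shared regions at large, so no change particular to K27M-Tag-only regions was read from them. Regions with FLAG in all 6 lists had 8.95% wider, and regions with no FLAG peak 5.98%.

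The direction rested on the scale of the lists. The K27M-Tag lists were wider at most regions, and with each list centred on its median log2 breadth, 91 K27M-Tag-only regions were wider and 32 narrower, with a median change of -0.017. Wider calls thus made up 74.0% of the calls after centring and 96.3% before (63.6% and 93.2% over all shared regions). Single libraries also moved the counts: 22 regions were wider without K27M-Tag replicate 1, 115 without replicate 2, 43 without replicate 3, and 126 without WT-Tag replicate 3. The lists end where each one's own threshold ends, so breadth moves with enrichment and control, and the spike-in chromatin gave no factor that was used here.

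The 4 K27M-Tag-only regions with the largest gain in breadth were about 4 to 5 times wider in K27M-Tag. On chromosome 11 from 63835266 to 63837290, H3K4me3 covered 1714, 1682 and 2025 bp in the K27M-Tag lists against 438, 386 and 345 bp in the WT-Tag lists (log2 difference 2.22 with SE 0.13, limma adjusted p = 0.0026). On chromosome 3 from 40927053 to 40928302 it covered 1021, 844 and 1250 bp against 197, 255 and 216 bp (2.21 with SE 0.20, limma adjusted p = 0.00493). In neither did the groups overlap, and both kept an adjusted p under 0.05 when any of the 6 H3K4me3 libraries was left out.

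The other wider regions depended more on single libraries. On chromosome 6 from 51798724 to 51800413 the covered lengths were 1620, 1418 and 1687 bp in the K27M-Tag lists against 447, 390 and 201 bp in the WT-Tag lists (log2 difference 2.26 with SE 0.29, limma adjusted p = 0.0123). The limma adjusted p was 0.0673 without K27M-Tag replicate 1 and 0.0570 without replicate 3. On chromosome 17 from 66828598 to 66830088 they were 1491, 1316 and 1198 bp against 227, 394 and 258 bp (log2 difference 2.22 with SE 0.22, limma adjusted p = 0.00748). Without K27M-Tag replicate 1 the limma adjusted p was 0.0539. The groups were apart in both. In WT-Tag, H3K4me3 at these 4 wider regions scored low, at percentiles of 1.45 to 32.6 within its lists.

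Among the 12 narrower regions, the largest loss was on chromosome 19 from 29999210 to 30001401. H3K4me3 covered 688, 1138 and 902 bp there in the K27M-Tag lists against 2146, 2185 and 2117 bp in the WT-Tag lists (log2 difference -1.27 with SE 0.17, limma adjusted p = 0.0127; 0.0560 without K27M-Tag replicate 3). The K27M-Tag values varied and the WT-Tag values were nearly equal. On chromosome 16 from 16558923 to 16560732 the lengths were 1057, 1156 and 1176 bp against 1571, 1742 and 1756 bp (log2 difference -0.58 with SE 0.08, limma adjusted p = 0.0127; 0.0636 without K27M-Tag replicate 1).

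The other two were wider regions. On chromosome 3 from 121425015 to 121429536 the lengths were 2567, 3316 and 2435 bp against 4195, 4039 and 4268 bp (log2 difference -0.60 with SE 0.11, limma adjusted p = 0.0268). On chromosome 10 from 128370221 to 128374038 they were 2824, 2001 and 2521 bp against 3739, 3573 and 3620 bp (-0.59 with SE 0.12, limma adjusted p = 0.0324). Both missed the threshold without K27M-Tag replicate 1 or 3, or without WT-Tag replicate 1 or 3. The rule required FLAG in all 3 K27M-Tag lists, so its presence at both wider and narrower regions was fixed by the choice of regions.

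**Figure D5:**
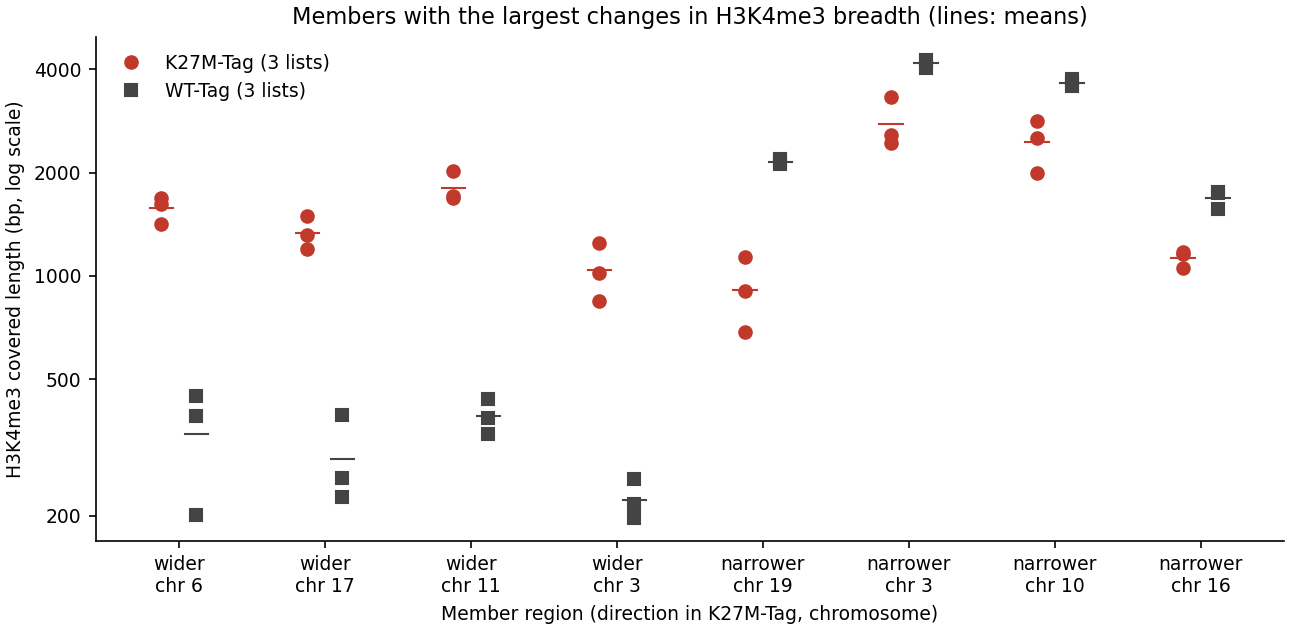
Covered H3K4me3 length in bp in each of the 3 K27M-Tag and 3 WT-Tag lists at the 4 wider and 4 narrower K27M-Tag-only regions with the largest log2 changes; each point is 1 list. In all 8 regions the K27M-Tag and WT-Tag points do not overlap.

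Strength of FLAG did not separate the wider regions. The 314 wider regions had a median FLAG pileup of 6.96, 5.99 and 6.66 times the background coverage, and K27M-Tag-only regions with no call 6.65, 5.99 and 6.94 times. FLAG covered a median of 719.5, 548 and 836 bp of the wider regions, against 648, 480 and 710 bp with no call. All these values are descriptions without a test.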

How the data were processed

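The authors deposited a peak list for each of the 12 libraries, with fold enrichment, a score, −log10 p and −log10 q for each peak, as values per peak of the authors' caller. The submitters' processing notes name BWA 0.7.17-r1188, MACS2 2.2.7.1, bedtools 2.29.2 and the builds mm9 and dm6. The control used is not given in the sources used here, and the 2 composite inputs were not analysed here. H3K4me3 peaks on chromosomes 1 to 19 that shared 1 bp were merged. Pileup and local background were solved from fold and p (100% of peaks, relative error under 0.0001). Breadth was tested with limma 3.58.1 in R 4.3.3 (mean trend, no filter). The calculations were tested on simulated data. The regions and the rules for named regions were chosen with earlier results of these data known: the 6 highest by lowest FLAG percentile, the 4 widest and 4 narrowest changes among limma calls, those next to the limit, the extremes with 1 WT-Tag list, and the longest run. Alternatives were other overlaps, list sizes, gaps, breadth limits, scalings and left-out libraries.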

Additional observations from a re-analysis of the deposited data

How the results depend on the processing

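The count of 3501 K27M-Tag-only regions was 1671 with equal FLAG list sizes. It was 1849 with the highest-scoring 50% of every list and 1930 below 2000 bp. Leaving out 1 library gave 3537 to 4869 (most without K27M-Tag FLAG replicate 2). A library left out removes a condition of the rule, so a rise of this count was favoured in advance. Wider calls were 91 after centring, 137 with the highest-scoring 50% of peaks, 158 with gaps of up to 1000 bp joined, and 86 with the replicate block, and 22 to 444 without 1 library. Narrower calls were 32 after centring, 7 with the highest-scoring 50%, 6 with the replicate block, and 1 to 16 without 1 library. Without limma's trend 187 regions were wider and 3 narrower. The median log2 change turned to -0.017 after centring and was 0.10 to 0.14 without 1 library. Same-numbered H3K4me3 libraries had correlations of deviations in breadth of 0.029, 0.034 and -0.0096, and differently numbered ones -0.048 to 0.024. With 3 libraries per group, these values cannot tell whether a number marks anything shared. The median summit distance was 584 bp with all FLAG peaks and 505.5 to 520 bp without 1 library, and the covered share 30.1% to 36.5%. With the limit for raised local background set at 2 times, it was met by 0.743% of regions in K27M-Tag and 11.1% in WT-Tag. The other values keep the lower limit of the main results. They were 40.8% in WT-Tag over all peaks of a region, and without 1 library 10.1% to 11.6% in K27M-Tag and 43.7% to 43.8% in WT-Tag. A common p limit for the FLAG lists, chosen after seeing the data, gave 3502 regions. Of 80 values of the 8 named regions under alternatives, none reversed and 16 lost their call. The effect of sequencing depth on the FLAG lists was not tested.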

Other observations

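K27M-Tag-only regions were found on all 19 chromosomes. Their share of shared regions under 4000 bp was lowest on chromosome 18, with 97 of 659 (14.7%), and highest on chromosome 9, with 248 of 1178 (21.1%). A shared region that followed a K27M-Tag-only region was itself of this kind in 18.9% of cases, against 16.7% after any region. Within 5 kb the values were 126 of 543 (23.2%) and 512 of 2919 (17.5%), and after a region with no FLAG peak 10.2%. These shares are descriptions, without a test, and nearby regions may share a FLAG domain.

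With gaps under 50 kb the K27M-Tag-only regions formed 2873 runs, of which 2407 held a single region. The longest held 10 of the 18 shared regions on chromosome 13 from 21973622 to 22143597, a span of 169976 bp. Its 10 regions had a mean covered length of 891 to 3228 bp and FLAG percentiles of 20.2 to 88.4 in the K27M-Tag lists. H3K4me3 breadth had log2 changes of 0.06 to 0.52 there (median 0.23), none of which passed the test (lowest limma adjusted p 0.0601).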
